A study of Mus musculus with 6 samples.

Results

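The renin-angiotensin genes of the mouse kidney were compared between mice with a presymptomatic heart muscle disease and control mice. The set was given by gene symbol: the protease Ren1, its substrate Agt, the converting enzyme Ace, the receptor Agtr1a, and the peptidases Enpep, Mme, Anpep and Lnpep. Of these 8 genes 6 are among the 7373 genes listed in the table, and Mme and Lnpep were not analysed here. The set was chosen with the difference of Ren1 between the groups already known, so the group differences of its members are given as a description, without p-values.

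RNA was sequenced from snap-frozen kidney tissue. All mice were adult males of FVB/N, an inbred strain. In the transgenic group (3 samples) the mice overexpressed CryAB with the R120G mutation, a form of a small heat shock protein. Expression was driven by the α-myosin heavy chain promoter, which is active in heart muscle cells, and the mice were sampled before heart failure set in. The control group, of 3 samples, had the genotype Control and was matched for age and for male sex. The data columns of both groups are labelled Pre_IRI. The labels do not number the animals, and n counts samples, so the spread between samples may be partly technical.

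The renin-angiotensin system is a proteolytic cascade. Renin, released by juxtaglomerular cells at the arteriole that feeds the glomerulus, cuts angiotensin I from angiotensinogen, and angiotensin-converting enzyme turns it into angiotensin II, which acts on the AT1 receptor to constrict vessels and retain sodium. Membrane aminopeptidases, abundant on the proximal tubule brush border, trim angiotensin II to shorter peptides. Renin release is raised by low renal perfusion, by sympathetic nerves and by low chloride at the macula densa.

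The coding sequences of the cleaving enzymes are shown because they hold the catalytic residues of each enzyme. Renin is an aspartic protease, and the capitals below mark the codons of Asp-Thr-Gly at its 2 active-site aspartates, within 45 bases each. The others are zinc metallopeptidases, and the capitals mark the 5 codons of histidine, glutamate, 2 arbitrary residues and histidine, and the codon of the glutamate further on that completes the zinc site. All stretches are from GENCODE M21 transcripts of the C57BL/6J reference (GRCm38), not from FVB/N reads.
Ren1, coding bases 355 to 399: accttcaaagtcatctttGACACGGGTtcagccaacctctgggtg
Ren1, coding bases 910 to 954: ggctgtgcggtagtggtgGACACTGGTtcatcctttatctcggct
Ace, coding bases 1183 to 1269: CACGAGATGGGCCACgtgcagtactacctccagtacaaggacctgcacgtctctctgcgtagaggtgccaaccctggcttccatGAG
Ace, coding bases 2977 to 3063: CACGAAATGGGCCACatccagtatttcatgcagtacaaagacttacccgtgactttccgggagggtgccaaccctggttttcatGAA
Enpep, coding bases 1153 to 1224: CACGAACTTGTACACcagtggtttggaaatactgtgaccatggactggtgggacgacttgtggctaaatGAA
Anpep, coding bases 1159 to 1230: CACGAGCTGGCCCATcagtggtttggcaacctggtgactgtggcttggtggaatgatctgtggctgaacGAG
Positions count from the A of the start codon. The residues Asp-Thr-Gly-Ser, which both renin stretches encode, also occur 1 time in Enpep, outside the stretch shown. Ace encodes 2 catalytic domains, and its stretches match at 65 of 87 bases. Enpep and Anpep, both members of the M1 aminopeptidase family, match at 51 of 72 bases over the stretch shown.

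The promoters of renin and its substrate are shown because the groups differed in Ren1 and overlapped in Agt, while both windows hold the same core letters. Each window runs from 250 bases before to 50 after the RefSeq start, on the gene's strand, and the capitals mark TATAAA.
Ren1 promoter, chr1:133350424-133350723, plus strand, GRCm38.p6: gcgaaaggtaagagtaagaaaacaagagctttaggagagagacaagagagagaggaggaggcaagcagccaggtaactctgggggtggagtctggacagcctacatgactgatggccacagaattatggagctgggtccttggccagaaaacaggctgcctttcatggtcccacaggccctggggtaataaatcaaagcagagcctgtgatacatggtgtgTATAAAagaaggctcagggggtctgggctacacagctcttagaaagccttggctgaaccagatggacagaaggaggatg
Agt promoter, chr8:124569657-124569956, minus strand, GRCm38.p6: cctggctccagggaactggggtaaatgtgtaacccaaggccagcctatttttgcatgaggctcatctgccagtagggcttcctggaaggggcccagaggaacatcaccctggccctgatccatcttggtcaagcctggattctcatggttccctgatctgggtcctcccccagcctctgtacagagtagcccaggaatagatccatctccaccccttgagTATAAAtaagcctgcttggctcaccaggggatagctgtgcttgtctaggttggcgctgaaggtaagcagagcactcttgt
TATAAA was searched on both strands. It begins 29 bases before the start of Ren1 and 30 bases before that of Agt, and on the gene's strand it is in none of the 4 windows of Ace (2 starts), Enpep and Anpep. On the other strand the Enpep window holds 2 matches and the window of the first Ace start 1. Of all 32851 RefSeq promoter windows 8.32% hold it on the gene's strand, 13.6% on either strand, and 1.99% hold it beginning 20 to 40 bases before the start. A match describes the letters and not a functional site.

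Control 3 stood apart from the other libraries in ways that touch these genes. In control 3 the table lists 0 for each of its 178 X and Y genes, all of which were above 0 in the other 5 libraries, and on the first principal component of the remaining genes control 3 lay at 23.1, where the others lay between -10.3 and 0.98. None of the 6 genes described here is on X or Y. Depth was 23.5 to 31.7 M estimated counts in transgenic kidneys and 28.0 to 47.6 M in controls. The smallest estimated count of any of the 6 genes in any kidney was 911, which carries a counting error of 3.31%. Cryab, the endogenous gene of the overexpressed protein, had 183, 175 and 191 CPM in transgenic kidneys and 207, 220 and 288 CPM in controls. The proximal tubule list had all 12 markers listed, with Slc34a1, a phosphate transporter gene, at 6585 CPM or more in every kidney, whereas no heart muscle marker of 5 and no adrenal marker of 6 is among the listed genes.

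Ren1 was the member that set the groups apart. Ren1 (gene ID 19701, chromosome 1, 133350674 to 133360320, mm10) had 734, 716 and 645 CPM (counts scaled to library size by TMM, from the estimated counts) in transgenic kidneys 1, 2 and 3, and 293, 338 and 247 CPM in control kidneys 1, 2 and 3. The lowest transgenic kidney lay well above the highest control, and the groups did not overlap. The means were 698 ± 47.1 CPM in transgenic kidneys and 293 ± 45.5 CPM in controls (SD, n = 3 each), a 2.38-fold difference with a log2 fold change of 1.25 ± 0.13 (SE). Transgenic kidney 3 was the lowest of its group and control 3 the lowest of its own. In RNA of whole kidney, more renin cells and more renin RNA in each cell cannot be told apart. Reads of Ren2, a near-identical renin gene that some mouse strains carry, could be counted as Ren1 if present.

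Of the 6 genes, 1 had no overlap between the groups, Ren1, against 5.92% of the 7195 genes outside X and Y (2.92% higher and 3% lower in all 3 transgenic kidneys). In the edgeR fit of all genes 0 of the 6 were called at an adjusted p under 0.05, where 0% of 7372 genes were called and 112 had an unadjusted p under 0.05. With X and Y genes left out Ren1 was called, where 0.0139% of 7194 genes were. In that setting Ren1 stayed called without control 2 or control 3, and 0 of the 6 genes were called without transgenic 1, 2 or 3 or without control 1. In the fit of all genes, leaving out control 3 gave 2 called genes, 1 of them Ren1. With DESeq2 on all genes Ren1 was called too, where 0.0271% of 7372 genes were. Since the set was chosen on this contrast, nothing is read from these counts.

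Agt, which encodes angiotensinogen, the substrate of renin, had 84.8, 65.3 and 73.4 CPM in transgenic kidneys and 73.8, 65.1 and 77.2 CPM in controls (gene ID 11606, chromosome 8, 124556587 to 124569706). The 2 groups covered nearly the same range. Means were 74.5 ± 9.82 CPM in transgenic kidneys and 72.03 ± 6.26 CPM in controls (SD, n = 3 each), with a log2 fold change of 0.05 ± 0.12 (SE). Much angiotensinogen protein is made by the liver, which was not measured here.

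Ace, which converts angiotensin I to angiotensin II on endothelium and brush border, had 187, 179 and 218 CPM in transgenic kidneys and 231, 227 and 170.1 CPM in controls (gene ID 11421, chromosome 11, 105967948 to 105989964). Controls 1 and 2 lay above all 3 transgenic kidneys, and control 3 below them. The log2 fold change was -0.10 ± 0.14 (SE) over 6 kidneys and -0.23 without control 3, where the groups no longer overlapped. Groups separate more readily with a library left out, and the share of all genes that did so was not computed. Counts per gene do not separate the somatic transcript from the shorter one that starts inside the gene.

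Agtr1a, the main AT1 receptor gene of the mouse kidney, had 35.1, 39.2 and 38.2 CPM in transgenic kidneys and 35.2, 35.8 and 39.6 CPM in controls (gene ID 11607, chromosome 13, 30336356 to 30382867). Its values were the most alike between the groups in size of difference and lay within a narrow range. The log2 fold change was 0.02 ± 0.09 (SE), and within each group its coefficient of variation was 5.65% in transgenic kidneys and 6.50% in controls, against medians of 6.49% and 10.5% over 7194 genes.

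Enpep encodes aminopeptidase A, which removes the first residue of angiotensin II. It had 69.9, 73.1 and 72.4 CPM in transgenic kidneys and 67.3, 57.96 and 114 CPM in controls (gene ID 13809, chromosome 3, 129269177 to 129332749). The coefficient of variation was 2.36% in transgenic kidneys, against 37.7% in controls, where control 3 stood far above the others. The direction of the difference depended on that library. The log2 fold change was -0.15 ± 0.25 (SE) over 6 kidneys and 0.20 without control 3. All 3 transgenic kidneys then lay above both remaining controls, a separation that is reached more readily with fewer libraries. How many of all genes separate in that setting was not computed. Other genes were high in control 3 as well, among them Folh1, a brush border carboxypeptidase gene, at 60.01, 50.9 and 47.7 CPM in transgenic kidneys and 49.6, 44.8 and 86.6 CPM in controls, chosen after its values were seen. Whether the value of Enpep in control 3 shares a source with the X and Y zeros was not tested.

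Anpep, which encodes aminopeptidase N, an enzyme of the next trimming step, had 129, 119 and 138 CPM in transgenic kidneys and 139.8, 127 and 111 CPM in controls (gene ID 16790, chromosome 7, 79821803 to 79848210). The groups overlapped fully, with a log2 fold change of 0.03 ± 0.11 (SE). The sign turned without control 3, at -0.05. Over the 6 genes together the median log2 fold change was 0.03, with 4 above and 2 below zero, against a median of 0.00 over all genes outside X and Y.

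**Figure D1:**
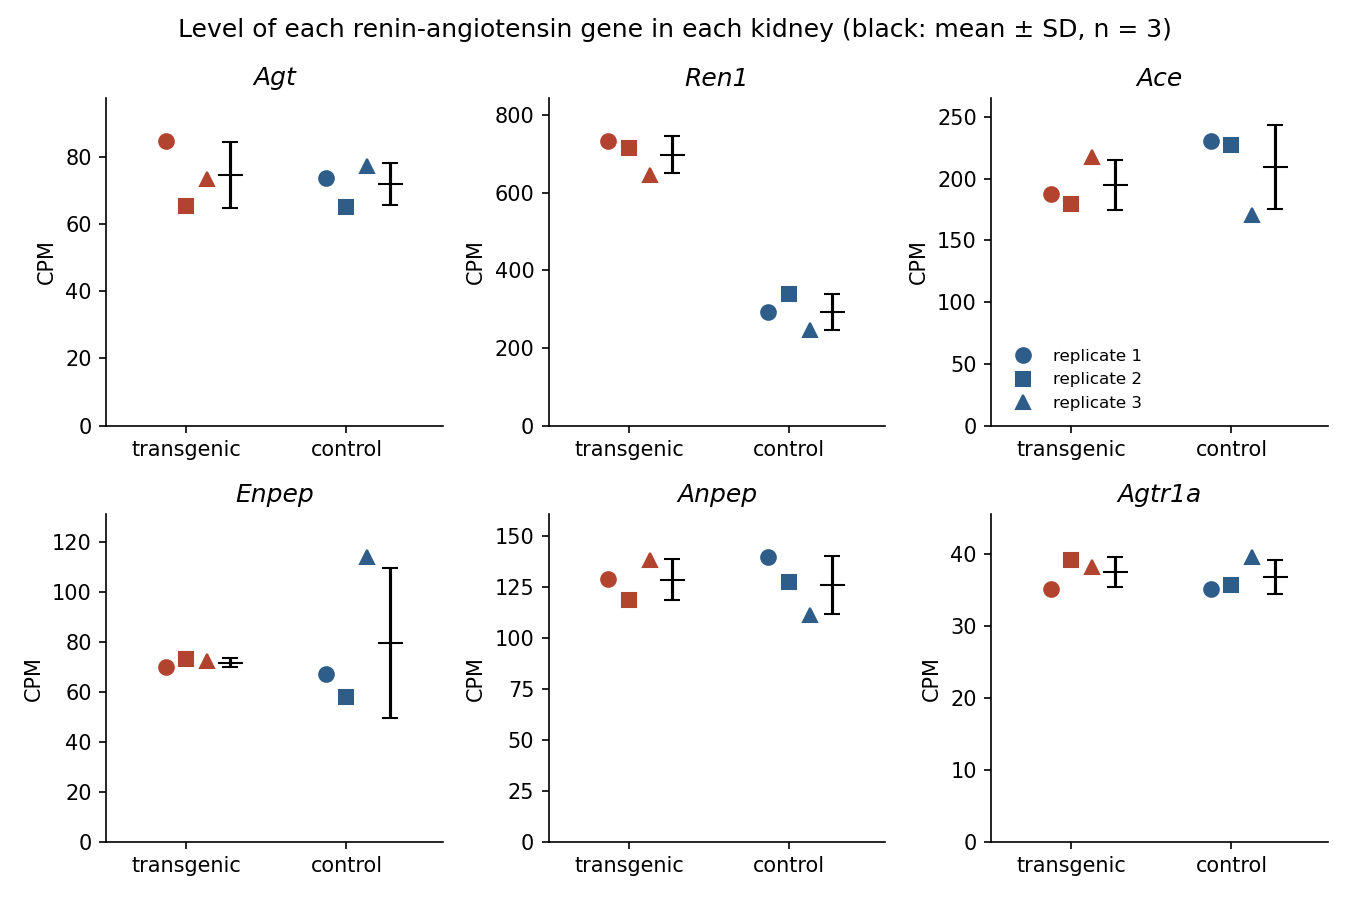
Level in CPM (y axes, from 0) of each of the 6 genes in the 3 transgenic and 3 control kidneys, with the symbol giving the replicate and black bars the mean ± SD (n = 3). Ren1 lies at 645 CPM or more in transgenic kidneys and at 338 CPM or less in controls, the other genes overlap, and Enpep in control 3, at 114 CPM, stands above the rest.

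**Figure D2:**
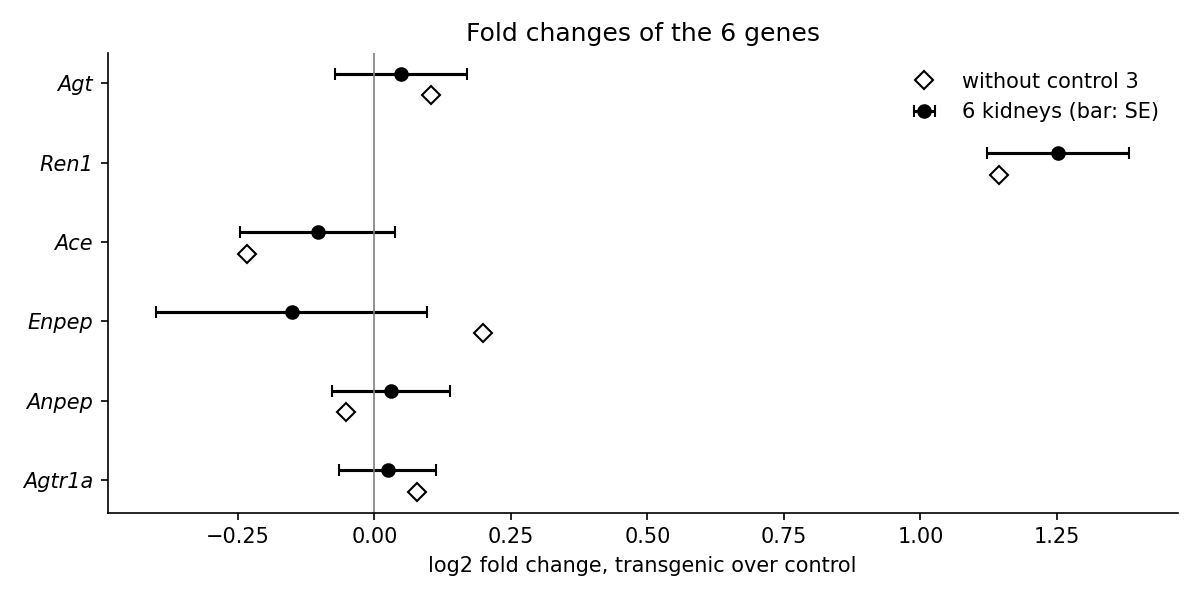
Log2 fold change (x axis, transgenic over control) of each gene over 6 kidneys, with its SE as the bar (filled circles), and without control 3 (open diamonds). Ren1 lies at 1.25 and 1.14, the other 5 between -0.23 and 0.20, and Enpep and Anpep change sign.

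Renin was then set against each other gene within the same kidney, a comparison that does not depend on how libraries are scaled. Per kilobase of transcript, Ren1 stood at 10.3, 13.02 and 10.4 times Agt in transgenic kidneys and at 4.73, 6.18 and 3.81 times Agt in controls. The enzyme therefore exceeded its substrate at the RNA level in all 6 kidneys, and by more in each transgenic kidney than in any control. The difference was 1.22 ± 0.23 (SE) on the log2 scale, a 2.33-fold higher ratio.

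Over Ace, the ratio was 12.1, 12.3 and 9.13 in transgenic kidneys and 3.92, 4.59 and 4.48 in controls, a log2 difference of 1.36 ± 0.16 (SE). Over Anpep, it was 13.5, 14.4 and 11.1 in transgenic kidneys and 5.004, 6.34 and 5.31 in controls, a log2 difference of 1.23 ± 0.15 (SE). These 2 ratios had the smallest errors of the 5, and the controls lay close together.

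Over Agtr1a, the ratio was 28.9, 25.2 and 23.3 in transgenic kidneys and 11.5, 13.1 and 8.63 in controls, a log2 difference of 1.24 ± 0.20 (SE). Over Enpep, it was 27.6, 25.7 and 23.4 in transgenic kidneys and 11.5, 15.3 and 5.697 in controls, a log2 difference of 1.35 ± 0.43 (SE). The error was widest for Enpep, where control 3 lay far below the other controls, and without control 3 the log2 difference was 0.94. In each of the 5 comparisons the groups did not overlap: the lowest transgenic ratio was 1.52 (Enpep) to 1.99 (Ace) times the highest control ratio. All 5 share the values of Ren1 and are not independent of each other.

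**Figure D3:**
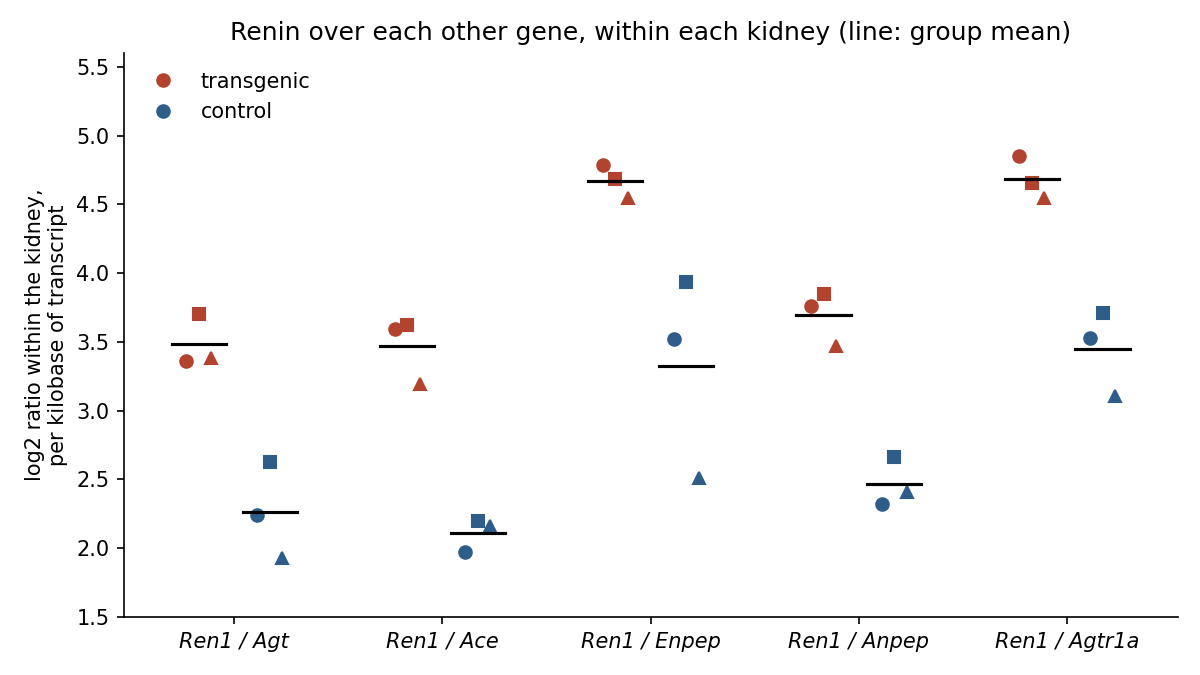
Log2 ratio (y axis) of Ren1 to each other gene within each kidney, per kilobase of transcript, with points for the 3 transgenic and 3 control kidneys and a line for the group mean. Every transgenic kidney lies above every control in all 5 comparisons, and the controls spread most for Enpep.

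Among the other 5 genes, whether a ratio separated the groups depended on control 3. Over all 6 kidneys the within-kidney ratios of transgenic and control kidneys overlapped for each of the 10 pairs, with log2 differences between -0.13 for Ace over Anpep and 0.14 for Agt over Ace. Without control 3 the log2 differences lay between -0.44 and 0.33, and 6 of the 10 pairs no longer overlapped, all 4 pairs with Ace among them. With a library left out groups separate more readily, and the share over all genes in that setting was not computed. The 10 pairs share 5 genes and are not independent of each other, so nothing is read from this count. For Ace over Anpep the log2 difference was -0.13 ± 0.07 (SE), and -0.18 without control 3. The centred profiles of Ace and Anpep over the 6 kidneys were the closest of all 15 pairs, with a root mean square difference of 0.10 on the log2 scale. Ren1 was at least 0.63 from each of the others by the same measure.

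Scaled for transcript length, Ren1 was the most abundant of the 6 in every kidney, at 438 ± 29.6 CPM per kilobase in transgenic kidneys and 184 ± 28.6 in controls (SD, n = 3 each). It ranked 204th in transgenic kidneys and 470th in controls among 6724 genes outside X and Y with a known length. Ace, Agt and Anpep followed at 39.7, 39.4 and 33.9 CPM per kilobase in transgenic kidneys and 42.7, 38.1 and 33.2 in controls. Neighbours in that order had overlapping ranges, although within a kidney Agt was above Anpep in 3 of 3 transgenic and 3 of 3 control kidneys. Ace was above Agt in 2 of 3 transgenic and 2 of 3 control kidneys. Enpep and Agtr1a came last, at 17.2 and 17.1 CPM per kilobase in transgenic kidneys and 19.1 and 16.8 in controls, again with overlapping ranges. The steps from Ren1 to Ace and from Anpep to Enpep had no overlap in either group. Levels depend on the transcript chosen, here the longest protein-coding one, from 1592 bases for Ren1 to 4906 for Ace.

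**Figure D4:**
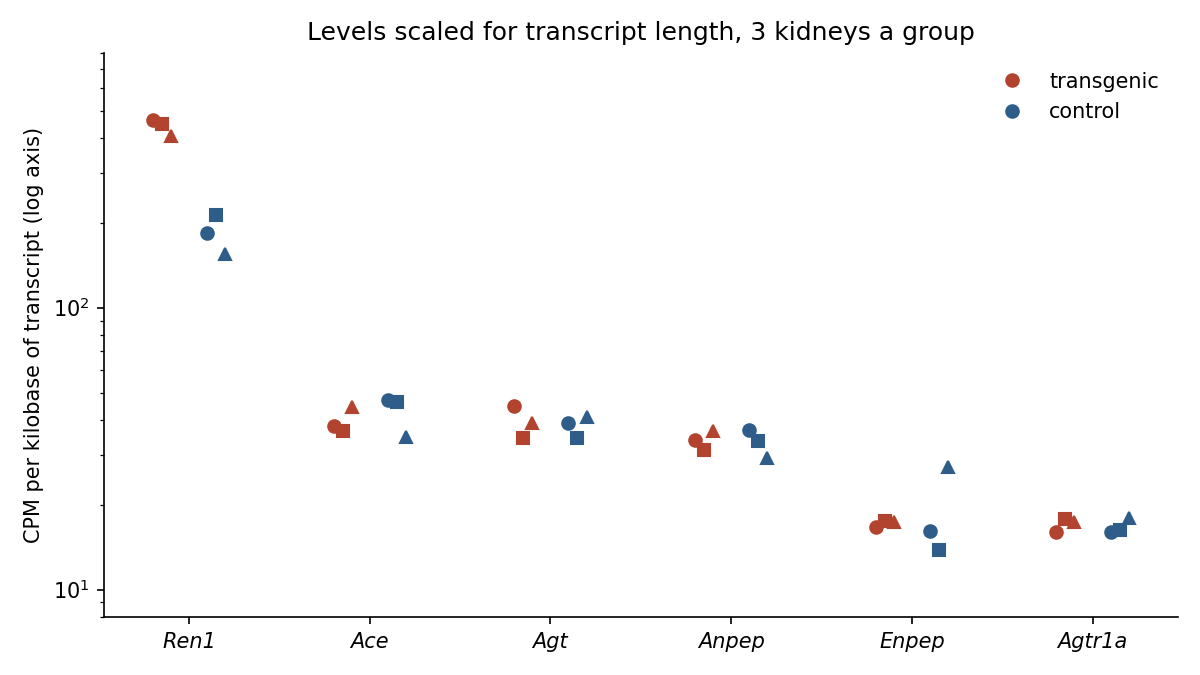
Level in CPM per kilobase of transcript (y axis, log scale) of the 6 genes in each of 3 transgenic and 3 control kidneys. Ren1 lies above 155 in all kidneys, and the other 5 between 13.9 and 47.0, with the groups overlapping.

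Markers of the cells that make renin were read beside Ren1. Of 15 renin cell and vascular smooth muscle markers 6 are among the listed genes, and all 6 fold changes were above zero. The median log2 fold change of these 6 markers was 0.15, and 0 were called in the edgeR fit (0% of all 7372 genes). Their summed level was 183 to 221 CPM in transgenic kidneys and 170.05 to 183 CPM in controls, with the lowest transgenic kidney just under the highest control. Akr1b7, an aldo-keto reductase gene known as a marker of renin cells in mice, had 6.79, 7.66 and 6.38 CPM in transgenic kidneys and 4.42, 5.58 and 5.35 CPM in controls. At this low level it was the 1 of the 6 markers without overlap between the groups (5.92% over all genes outside X and Y). Its log2 fold change was 0.44 ± 0.15 (SE). Acta2, the smooth muscle actin gene, had 62.1, 36.1 and 48.2 CPM in transgenic kidneys and 36.3, 42.1 and 30.6 CPM in controls, with overlap and a log2 fold change of 0.43 ± 0.22 (SE). Tagln, Des and Pdgfrb, further genes of the vessel wall, differed by 0.09, 0.08 and 0.01. Myh11, Cnn1 and Rgs5 are not among the listed genes. Of 7 glomerular podocyte markers 3 are listed, and their summed level was 187 to 227 CPM in transgenic kidneys and 135 to 175 CPM in controls, with no overlap, where Podxl differed by 0.23 and Clic5 by 0.05. The part of these cells in the difference of Ren1 was not tested.

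Ace, Enpep and Anpep are genes of the proximal tubule brush border among other sites. The summed level of the 12 proximal tubule markers was 16413 to 17850 CPM in transgenic kidneys and 16497 to 16928 CPM in controls, with a median log2 fold change of 0.01. Among 15 further kidney peptidase genes 11 were measured, with a median of -0.02. Of these, 4 were above and 7 below zero, and 0 were called (0% over all genes). The 2 most abundant, Acy3, an aminoacylase gene, and Ggt1, the gamma-glutamyltransferase gene, differed by 0.08 and 0.06. Dpp4, a brush border dipeptidyl peptidase gene, was the 1 peptidase of 11 without overlap (5.92% over all genes), at 43.7, 45.5 and 45.7 CPM in transgenic kidneys and 47.2, 46.5 and 59.5 CPM in controls. Its log2 fold change was -0.18 ± 0.11 (SE) and -0.06 without control 3.

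Of 20 other genes of the renin-angiotensin system 13 are listed, 10 of them outside X. The median log2 fold change of these 10 was 0.04, with 8 above and 2 below zero and 0 called (0% over all genes). Klk1, the tissue kallikrein gene whose product releases kinins, had 2111, 2017 and 1991 CPM in transgenic kidneys and 1947, 1748 and 1706 CPM in controls. It was the 1 gene of these 10 without overlap, where 5.92% of all genes outside X and Y had none, and its log2 fold change was 0.18 ± 0.08 (SE). The kallikrein genes form a cluster of near-identical copies, so its reads may be shared. Ctsd, the gene of cathepsin D, the lysosomal aspartic protease, differed by -0.09. Agtrap, whose product binds the AT1 receptor and favours its internalization, differed by 0.06, and Prcp, whose product can cleave the last residue of angiotensin II, by -0.13, or 0.04 without control 3.

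Atp6ap2, the prorenin receptor gene, and Tmem27, which encodes collectrin, are on X and were at 0 in control 3 with all other X genes, so no fold change is given. Atp6ap2 had 90.8, 96.2 and 98.6 CPM in transgenic kidneys and 110.1 and 86.97 CPM in controls 1 and 2. Tmem27 had 1228, 1315 and 1459 CPM in transgenic kidneys and 1431 and 1047 CPM in controls 1 and 2. In both genes controls 1 and 2 overlapped the transgenic kidneys.

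Genes known to govern renin release and transcription were mostly outside the listed genes, with 12 of 30 measured. Their median log2 fold change was 0.02, with 7 above and 5 below zero and 0 called (0% over all genes). Gnas, the stimulatory G protein gene of the cyclic AMP pathway that drives renin release, differed by 0.04, Prkar1a, a protein kinase A regulatory subunit gene, by -0.07, and Vdr, the vitamin D receptor gene, by 0.03. Hoxd10, a homeobox gene, was the 1 of 12 without overlap (5.92% over all genes), at 14.5, 14.3 and 14.2 CPM in transgenic kidneys and 15.6, 17.4 and 15.9 CPM in controls, with a log2 fold change of -0.19 ± 0.09 (SE). Ptgs2, Nos1, Adrb1 and Gja5 are not among the listed genes.

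Downstream of angiotensin II, 13 of 17 genes of aldosterone response and distal sodium handling were measured outside X. The median log2 fold change of these 13 was 0.00, with 7 above and 6 below zero and 0 called (0% over all genes). Slc12a3, the thiazide-sensitive cotransporter gene, differed by 0.08. Stk39, which encodes the kinase SPAK of the WNK pathway, had 31.6, 36.4 and 30.3 CPM in transgenic kidneys and 41.4, 38.5 and 46.7 CPM in controls, a log2 fold change of -0.37 ± 0.11 (SE). Hsd11b2, the enzyme that protects the mineralocorticoid receptor from cortisol-type steroids, had 164, 143 and 145 CPM in transgenic kidneys and 139.8, 129 and 132 CPM in controls, a log2 fold change of 0.17 ± 0.08 (SE). These 2 of 13 genes did not overlap between the groups, against 5.92% of all genes. Sgk1, an aldosterone-induced kinase gene, varied within the groups, at 91.2, 53.2 and 95.99 CPM in transgenic kidneys and 76.7, 78.9 and 106 CPM in controls.

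**Figure D5:**
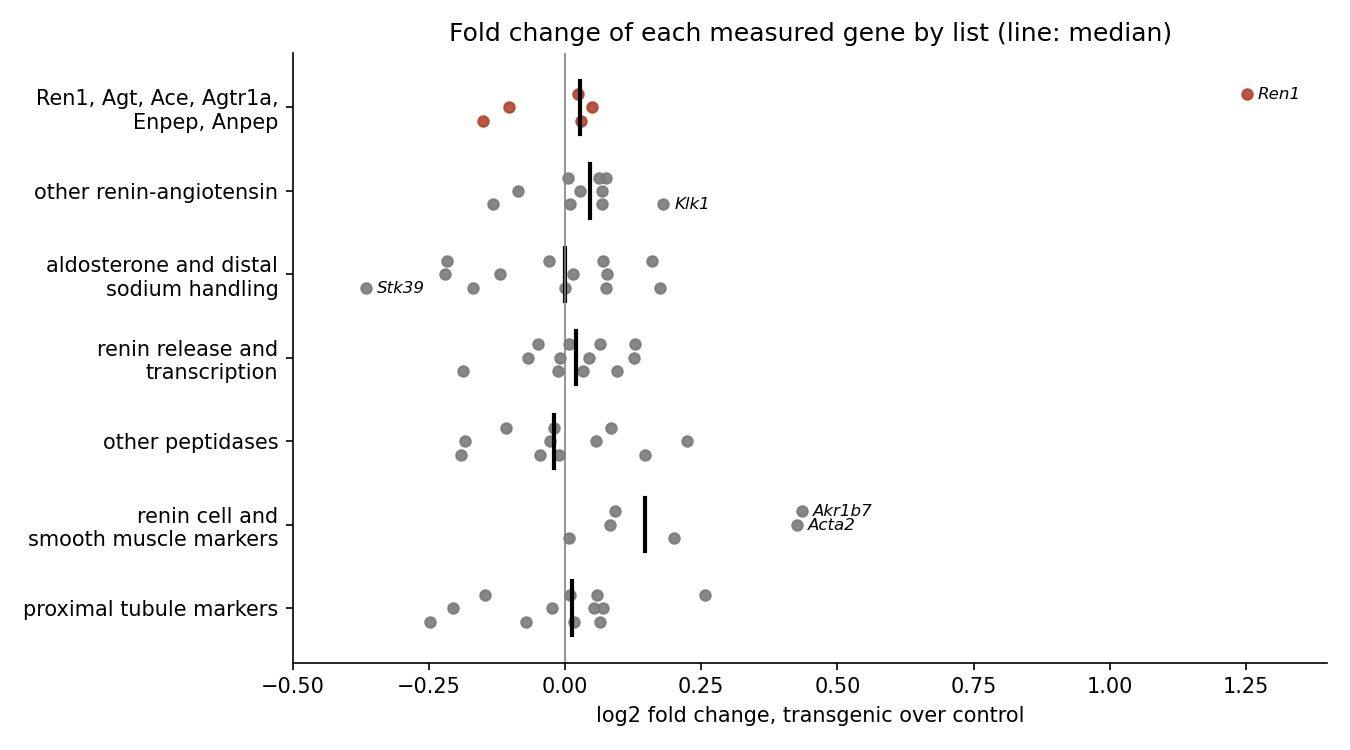
Log2 fold change (x axis, transgenic over control) of each measured gene outside X and Y, by list (rows), with the median as a line. Ren1 lies at 1.25, the other genes of the first 5 rows lie between -0.37 and 0.22, and Akr1b7 and Acta2, at 0.44 and 0.43, lead the renin cell and smooth muscle markers.

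The genes whose centred profiles over the 6 kidneys were most like that of Ren1 were Clic3, Kcnj2, Tldc2, Tle3 and Gm13889, out of 7191 compared. Their root mean square differences from Ren1 were 0.34, 0.38, 0.40, 0.40 and 0.42 on the log2 scale, closer than any of the other 5 renin-angiotensin genes. Kcnj2, an inward rectifier potassium channel gene, had 53.04, 48.5 and 47.3 CPM in transgenic kidneys and 35.02, 45.2 and 22.5 CPM in controls. As for Ren1, control 2 was the highest and control 3 the lowest of its group. Tle3, a transcriptional co-repressor gene, had 81.2, 86.3 and 74.8 CPM in transgenic kidneys and 59.8, 72.3 and 45.6 CPM in controls. Clic3, a chloride intracellular channel gene, was low, at 5.72, 6.10 and 3.78 CPM in transgenic kidneys and 2.61, 2.12 and 2.96 CPM in controls. All 5 were without overlap and higher in transgenic kidneys, as the choice by likeness to Ren1 brings with it, and with log2 fold changes of 0.44 to 1.02 all were below the 1.25 of Ren1.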

How the data were processed

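RNA-seq of whole kidney was available for 3 transgenic and 3 control samples. The authors deposited 1 table. Its raw columns hold estimated counts, since 94.2% to 96.4% of values per library are not whole within 0.001, and its normalized columns hold log2 values that equal the log2 of the deposited estimated count less 1 factor per library and 1 baseline per gene. The file headers give a filter: a value called NRPKM had to lie between 5.0 and 84233.281 in 2 or more of 6 samples, so low genes are outside the table. Per the submitters' processing notes the build was mm10. No aligner or counting program is given in the sources used here. A further 12 columns of per-sample values match none of these samples and were not used.

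Estimated counts were rounded and tested with edgeR 4.0.16 (R 4.3.3): filterByExpr, TMM, quasi-likelihood test, group as the only term, Benjamini-Hochberg adjustment over all genes, threshold 0.05, two-sided. The SE is the log2 fold change over the square root of F. The fit was tested on simulated data. With 3 samples against 3 an exact permutation test cannot go below p = 0.1. Alternatives were DESeq2 1.42.0, its size factors, no filter, X and Y genes left out, the replicate block, limma 3.58.1 on the deposited log2 values, and each library left out. CPM used unrounded counts. Lengths were those of the longest protein-coding GENCODE M21 transcript, known for 93.4% of genes. Chromosomes and positions came from RefSeq GRCm38.p6, the assembly of mm10.

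The members, the lists and the tests were chosen with earlier results of these data known. Named genes are the members, members of the first 4 lists without overlap, the 2 most abundant of each of those lists, genes that say what a list holds, and the 5 nearest profiles to Ren1. Some genes that this rule or the lists include are not reported here. Markers of the thick ascending limb, distal tubule and collecting duct, endothelium, macrophages, fat and red cells were read too and are given in the closing section.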

Additional observations from a re-analysis of the deposited data

How the results depend on the processing

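Over the 6 genes and the 5 ratios, every log2 difference stayed within 1 SD of its value in the settings run. That SD is the spread within the groups over the same 6 kidneys. Control 3 widens it for Enpep, so this is a weak measure of stability. The sign turned for Agt, Agtr1a, Enpep and Anpep when 1 library was left out. Ctsd, Vdr, Pdgfrb, Acy3 and Ggt1 turned sign without control 3. Genes called numbered 0 in the edgeR fit of all genes, 2 with DESeq2, 1 when genes of X and Y were left out and 1 when the replicate block was added to that. Of the 6 genes, 1 was called in each of these 3 settings, Ren1. It was 0 with DESeq2 size factors, no filter, limma on the deposited log2 values and the replicate block alone. Leaving out each library gave 0 to 2 genes called and 0 to 1 of the 6, with or without X and Y genes. Correlations of same-numbered deviations from the group means were 0.00081, 0.035 and 0.34, and those of unlike numbers lay between -0.42 and 0.41. Replicate numbers thus showed no pairing common to all samples. Transgenic 3 and control 3 were alike at Ugt1a10, chosen after its values were seen, at 395 and 425 CPM. That gene had 127 and 121 CPM in transgenic 1 and 2, and 131 and 119 CPM in controls 1 and 2. Whether the samples numbered 3 share a source of spread was not tested. Without 1 library the log2 fold change ranged from 1.14 to 1.37 for Ren1, -0.05 to 0.14 for Agt, -0.23 to -0.03 for Ace, -0.01 to 0.08 for Agtr1a, -0.34 to 0.20 for Enpep and -0.05 to 0.11 for Anpep. List medians ranged from 0.069 to 0.22 for renin cell and smooth muscle markers, -0.023 to 0.035 for aldosterone and distal sodium handling, -0.11 to 0.054 for the distal tubule and collecting duct, -0.18 to 0.13 for endothelium and -0.73 to 3.70 for the 2 fat cell markers, which stood at 2.44 with the replicate block. The cause was not tested.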

Other observations

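Markers of cells not tied to the renin-angiotensin genes were read for completeness, outside X and Y. The 6 thick ascending limb markers had a median log2 fold change of -0.12, all below zero, and -0.061 without control 3. In that setting Umod, the uromodulin gene, was at 0.01, and the other markers stayed below zero. Of the 6 markers, 1 was without overlap between the groups, against 5.92% of all genes. The summed level of the 6 was 2884 to 3212 CPM in transgenic kidneys and 3033 to 3575 CPM in controls. The 8 distal tubule and collecting duct markers had a median of -0.03. The 4 endothelial markers had a median of -0.12 and differed among themselves: Ehd3, of glomerular endothelium, was at 0.32 and Plvap, of peritubular and other fenestrated endothelium, at -0.30, each without overlap between the groups, as 5.92% of all genes were. The 4 macrophage markers had a median of -0.22, which was -0.067 without transgenic 1 and -0.38 without transgenic 3. The 3 red cell markers had a median of -0.32, which was -0.53 without control 3 and -0.21 without transgenic 3. The 2 fat cell markers had a median of -0.33, with no stable sign when 1 library was left out. No gene of these lists was called with edgeR over all genes, where 0% of all genes were called.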
